A study of Mus musculus with 6 samples.

Results

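Immediate early transcription factors were followed in testes of mice on postnatal day 15. The 10 genes were Fos, Fosb and Junb, the zinc-finger genes Egr1, Egr2, Egr3 and Egr4, and the nuclear receptor genes Nr4a1, Nr4a2 and Nr4a3. They were named for their family and not for a measured value, though with earlier results of these data known. Each was taken as the row of the array table whose only platform symbol is that gene. All 10 were found, each with 1 transcript cluster (a set of probes that together read 1 transcribed region), among 21789 clusters that carry 1 gene symbol. The 2 groups were testes labelled as Ikbkap knockout and testes labelled as control, with 3 arrays each. Ikbkap encodes the scaffold subunit of Elongator, a complex that modifies transfer RNAs. The labels give neither the allele, the way the gene was removed, the strain nor the genotype of the controls, and no row of the table named Ikbkap was used here, so the array values do not check the genotype. The labels do not say whether replicates are separate animals, so the spread behind the p-values may be technical. Below, a testis stands for the sample on 1 array and not for a known separate animal.

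Immediate early genes are transcribed within minutes of a stimulus, by factors that are already present in the cell, and need no protein synthesis first. Growth factors act on them through MAP kinases and SRF, which binds CArG boxes, and hormones that raise cyclic AMP act through CREB, which binds the cyclic AMP response element (CRE). In Leydig cells luteinizing hormone induces Nr4a1 by the cyclic AMP route, and NR4A1 acts on promoters of steroidogenic genes. Because the transcripts are short-lived, their level reflects the moment at which a tissue was taken.

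The data are log2 intensities, so a difference of 1 is a doubling. Array medians over all rows lay between 8.075 and 8.1, and the lowest correlation between arrays was 0.997 within a group and 0.996 across groups. Of all clusters tested 3 passed an adjusted p of 0.05 in limma, 0.0138%, and none was a member. RNA came from whole testis, in which fewer cells of a type and less RNA per cell cannot be told apart. Markers of testis were high: the germ cell gene Ddx4 averaged 11.86 ± 0.093 in knockout and 12.06 ± 0.080 in control testes, and the Sertoli cell gene Sox9 11.73 ± 0.067 and 11.65 ± 0.012 (SD, n = 3 each). Detection calls were not used here, so it is not known which members lay above background.

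The promoters of the NR4A genes are shown because 2 of these genes stood out on a single array and the other did not. The sequences are from RefSeq on GRCm38.p6, 5′ to 3′ on the gene's strand, and cover up to 250 bases before an annotated start. Capitals mark the CRE core, TGACG on either strand (CGTCA when read on the shown strand), with overlapping matches counted once. The Nr4a1 window lies at chr15:101266596-101266845 on the plus strand, within the annotated span of the gene, before the start listed for it, and the Nr4a2 window at chr2:57124004-57124253 on the minus strand.
Nr4a1: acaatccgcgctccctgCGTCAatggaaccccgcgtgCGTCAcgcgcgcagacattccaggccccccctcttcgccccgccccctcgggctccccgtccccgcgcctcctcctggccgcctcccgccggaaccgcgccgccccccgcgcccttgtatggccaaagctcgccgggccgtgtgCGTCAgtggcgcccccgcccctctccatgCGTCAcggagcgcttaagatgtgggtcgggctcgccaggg
Nr4a2: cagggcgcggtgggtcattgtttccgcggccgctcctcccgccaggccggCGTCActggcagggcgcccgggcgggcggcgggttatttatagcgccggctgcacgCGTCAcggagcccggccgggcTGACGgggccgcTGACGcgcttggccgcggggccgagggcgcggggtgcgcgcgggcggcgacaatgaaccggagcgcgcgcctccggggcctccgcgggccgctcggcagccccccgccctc

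Each of these windows held 4 CRE cores, as did the window of Nr4a3, of which 30 bases from chr4:48045092-48045121 (plus strand) are printed with 2 of its CRE cores.
Nr4a3: CGTCAcatTGACGtctcgcattccaggcac
At least 1 CRE core was in 17.8% of 32851 windows of 250 bases in the same table, and 4 or more were in 0.0487% of them, which belong to 16 genes, 3 of them the NR4A genes. The other members with a window held 1 CRE core (Fosb and Junb) or 2 (Fos, Egr4 and, in those of its 5 windows that held any, Egr2). Egr1 and Egr3 were not matched. No window of a member, the NR4A genes included, held the whole CRE palindrome, which was in 1.55% of the 32851 windows. A CArG box, searched on both strands by its usual consensus, was in 1.47% of windows and, among the members, in 4 of the 5 windows of Egr2, of which 30 bases from chr10:67537797-67537826 (plus strand) are printed with the box and a nearby CRE core in capitals.
Egr2: CCATATATGGgcagcgaCGTCAcgggtatt
Several Egr2 windows overlap and hold this same box, while the window at chr10:67537316-67537565 held a different box and no CRE core. Bases further than 250 before a start were not searched. A match describes letters only, and no binding was measured here.

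The largest differences among the 10 factors came from a single array. Nr4a1 and Nr4a2 were more than 1 log2 unit higher in knockout replicate 3 than in any other testis and lay at control level in the other 2 knockout testes. Egr2 was the member with the smallest p, higher in all 3 knockout testes than in any control testis. No member passed an adjusted p of 0.05 in limma, and at an unadjusted p under 0.05 there were 2 higher (Fos and Egr2) and 1 lower (Egr4). That is 3 of 10, against 10.6% of all tested clusters. The same 3 had groups of values that did not overlap, against 15.3% of all tested clusters (6.73% higher and 8.6% lower). By sign alone 9 of 10 differences were above 0, with a median of 0.20, where the median of all tested clusters was 0.0033 and 51.3% lay above 0. Without knockout replicate 3 the median of the members was 0.071, with 8 above and 2 below 0. Then 1 member had an unadjusted p under 0.05 in limma, against 9.18% of all tested clusters.

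**Figure D1:**
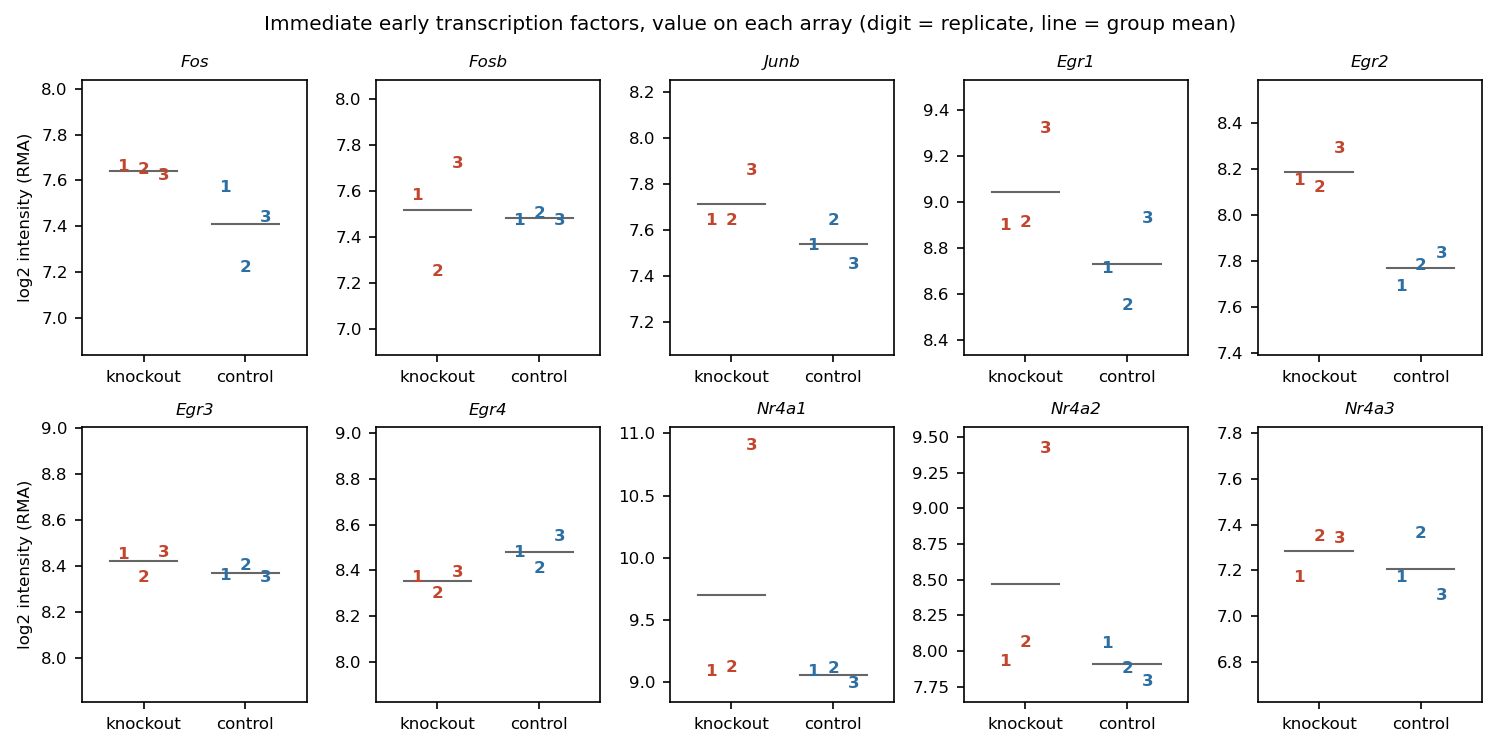
Log2 intensity (RMA) of the 10 genes on each array, knockout left and control right in every panel, each digit being the replicate number and each line the group mean. Every axis spans at least 1.2 log2 units. Nr4a1 and Nr4a2 have a single high value, knockout replicate 3 at 10.90 and 9.42, while the 3 knockout values of Egr2 (8.12 to 8.29) lie above its 3 control values (7.69 to 7.83).

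The NR4A genes encode orphan nuclear receptors whose activity is set mainly by how much of them is made. Nr4a1 (NUR77; cluster 10427035, chromosome 15) measured 9.09, 9.12 and 10.90 in knockout replicates 1, 2 and 3, against 9.09, 9.11 and 8.99 in the control replicates. A single knockout testis was high, and the other 2 lay within 0.01 of the control range. The mean difference was 0.64 (95% interval -0.41 to 1.69, adjusted p = 0.667 in limma), from a knockout mean of 9.70 ± 1.04 and a control mean of 9.06 ± 0.064 (SD, n = 3 each). Its residual SD, 0.734, stood at the 99.9th percentile of all tested clusters, whose median was 0.0705.

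Nr4a2 (NURR1; cluster 10482772, chromosome 2), better known for its part in dopamine neurons, had the same shape. It measured 7.93, 8.06 and 9.42 in knockout replicates 1 to 3, against 8.05, 7.88 and 7.79 in control testes. Replicate 3 was again high, and the other 2 knockout values lay at most 0.01 outside the control range. Its difference was 0.56 (95% interval -0.28 to 1.41, adjusted p = 0.634 in limma). Nr4a1 and Nr4a2 were each other's nearest member by the shape of the 6 values, at a root mean square distance of 0.145 log2 units between their deviations from their own means.

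Nr4a3 (NOR1; cluster 10504838, chromosome 4), the third receptor of the family, did not share that peak. It measured 7.17, 7.35 and 7.34 in knockout testes, against 7.17, 7.36 and 7.09 in control testes. The groups overlapped, and the highest value was that of control replicate 2. The difference was 0.08 (95% interval -0.11 to 0.27, adjusted p = 0.779 in limma).

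Leaving out knockout replicate 3 brought the difference of Nr4a1 to 0.04 (95% interval -0.09 to 0.18) and that of Nr4a2 to 0.09 (-0.13 to 0.30). Without it Nr4a3 differed by 0.05 (-0.18 to 0.29). The intervals of Nr4a1 and Nr4a2 narrowed although an array fewer was used.

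**Figure D2:**
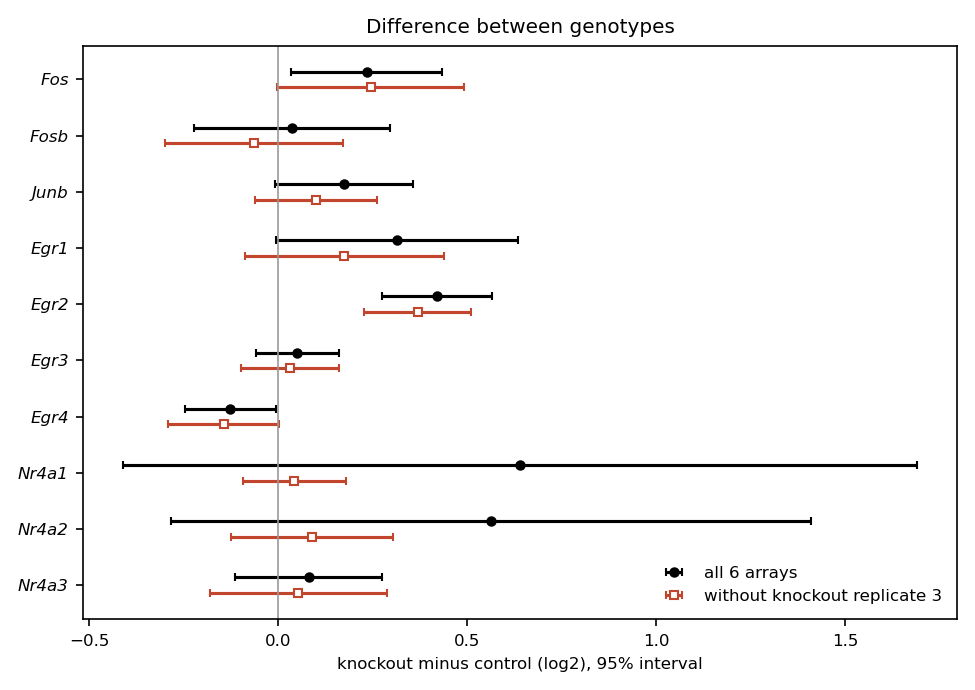
Knockout minus control on the log2 scale (horizontal axis) for each gene, with its 95% interval from limma, over all 6 arrays (filled circles) and without knockout replicate 3 (open squares). The wide intervals of Nr4a1 and Nr4a2 collapse onto values near 0 (0.04 and 0.09), and Egr2 stays at 0.37 with an interval of 0.23 to 0.51.

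The EGR genes encode zinc-finger factors that bind a GC-rich element, and they act mostly as activators. Egr2 (KROX20; cluster 10363735, chromosome 10), known for its role in myelinating Schwann cells and the hindbrain, measured 8.15, 8.12 and 8.29 in knockout testes, against 7.69, 7.78 and 7.83 in control testes. All 3 knockout values lay above all control values, the gap being 0.29. The difference was 0.42 (SE 0.062, 95% interval 0.28 to 0.56, fold 1.34), and its unadjusted p of 2.16e-04 ranked 20th of the 21789 tested clusters. The adjusted p was 0.235 in limma, above the threshold, and an exact permutation test of this gene alone gave 0.1 (two-sided), the smallest value that 3 arrays against 3 allow. Over all alternatives the difference ran from 0.37 to 0.45 and the adjusted p from 0.0871 to 0.646.

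Egr1 (cluster 10454782, chromosome 18), the most studied of the family and in the pituitary needed for the luteinizing hormone beta subunit, measured 8.90, 8.91 and 9.32 in knockout testes. In control testes it measured 8.71, 8.55 and 8.93. The groups overlapped through control replicate 3, and knockout replicate 3 was the highest by 0.39. The difference was 0.31 (95% interval -0.0074 to 0.63, adjusted p = 0.479 in limma), and 0.17 without knockout replicate 3 (95% interval -0.088 to 0.44).

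Egr4 (cluster 10545859, chromosome 6), which in mice is needed for male fertility and is expressed in germ cells, was the one member below 0. It measured 8.37, 8.30 and 8.39 in knockout testes, against 8.48, 8.41 and 8.55 in control testes. The groups did not overlap, by a margin of 0.02. The difference was -0.13 (SE 0.052, 95% interval -0.25 to -0.0053, adjusted p = 0.453 in limma). Beside it, 9 of 10 germ cell markers had a negative difference (median -0.14). Knockout replicate 3 was the highest for 1 of these 10 markers, against 14.1% of all tested clusters. At an unadjusted p under 0.05, 0 were higher and 5 lower, against 4.1% and 6.45% of all tested clusters. Knockout values all below the control values were found for 4 of the 10, against 8.6% of all tested clusters. Spo11, which makes the breaks of meiotic recombination (-0.35), and Ldhc, the testis lactate dehydrogenase (-0.75), had the smallest p-values of that list, with adjusted p-values of 0.256 and 0.375 in limma. The summed log2 level of the 10 markers was 108.89 to 110.45 in knockout testes and 110.90 to 112.22 in control testes, and the part of these markers in the difference of Egr4 was not tested.

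Egr3 (cluster 10416251, chromosome 14), known for its role in muscle spindles, was flat. It measured 8.45, 8.35 and 8.46 in knockout testes, against 8.36, 8.40 and 8.35 in control testes. The difference was 0.05 (95% interval -0.059 to 0.16), and its residual SD was lower than that of most clusters (24.4th percentile).

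FOS proteins pair with JUN proteins to form the AP-1 factor. Fos (cluster 10397346, chromosome 12) measured 7.66, 7.65 and 7.62 in knockout testes, against 7.57, 7.22 and 7.44 in control testes. The knockout values were nearly equal and lay above the control values, of which replicate 1 came within 0.05. The spread was in the control group (7.64 ± 0.021 in knockout and 7.41 ± 0.18 in control, SD, n = 3 each). The difference was 0.23 (SE 0.085, 95% interval 0.034 to 0.43, adjusted p = 0.412 in limma), and it was 0.14 without control replicate 2.

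Fosb (cluster 10560481, chromosome 7) measured 7.58, 7.25 and 7.72 in knockout testes and 7.47, 7.50 and 7.47 in control testes. Knockout replicate 3 was its highest value and knockout replicate 2 its lowest, with the controls between them. The difference of 0.04 (95% interval -0.22 to 0.30) became -0.065 without knockout replicate 3. Junb (cluster 10580282, chromosome 8), the JUN family member, measured 7.64, 7.64 and 7.86 in knockout testes, against 7.53, 7.64 and 7.45 in control testes. The groups met at 7.64, and knockout replicate 3 was again the highest. Its difference was 0.17 (95% interval -0.0087 to 0.36, adjusted p = 0.487 in limma) and 0.10 without that array.

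Knockout replicate 3 gave the highest of the 6 values for 7 of the 10 members, against 14.1% of all tested clusters, and by at least 0.25 for 3 of them (Nr4a1, Nr4a2 and Egr1), against 0.335%. Among the 7, Egr3 led by 0.01 and Egr2 by 0.14, and all 3 knockout values of Egr2 lay above its control values. No other array was the highest for more than 1 member or by 0.25 for any, although control replicate 2 stood out by 0.25 in more clusters (181 against 73). Of all tested clusters, 3 were at least 1 log2 unit higher in this array than in any other (0.0138%), and they were Serpina3a, Nr4a1 and Nr4a2, with gaps of 1.87, 1.78 and 1.36. The next 2 were Star, the protein that brings cholesterol into mitochondria for steroid synthesis (gap 0.87), and Fdx1, the ferredoxin that passes electrons to the mitochondrial steroidogenic enzymes (gap 0.69). Serpina3a, Star and Fdx1 were chosen after their values were seen. Such single-array peaks were not limited to this array, since 17 clusters, no member among them, stood at least 1 above all others in control replicate 3 (0.078%).

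**Figure D3:**
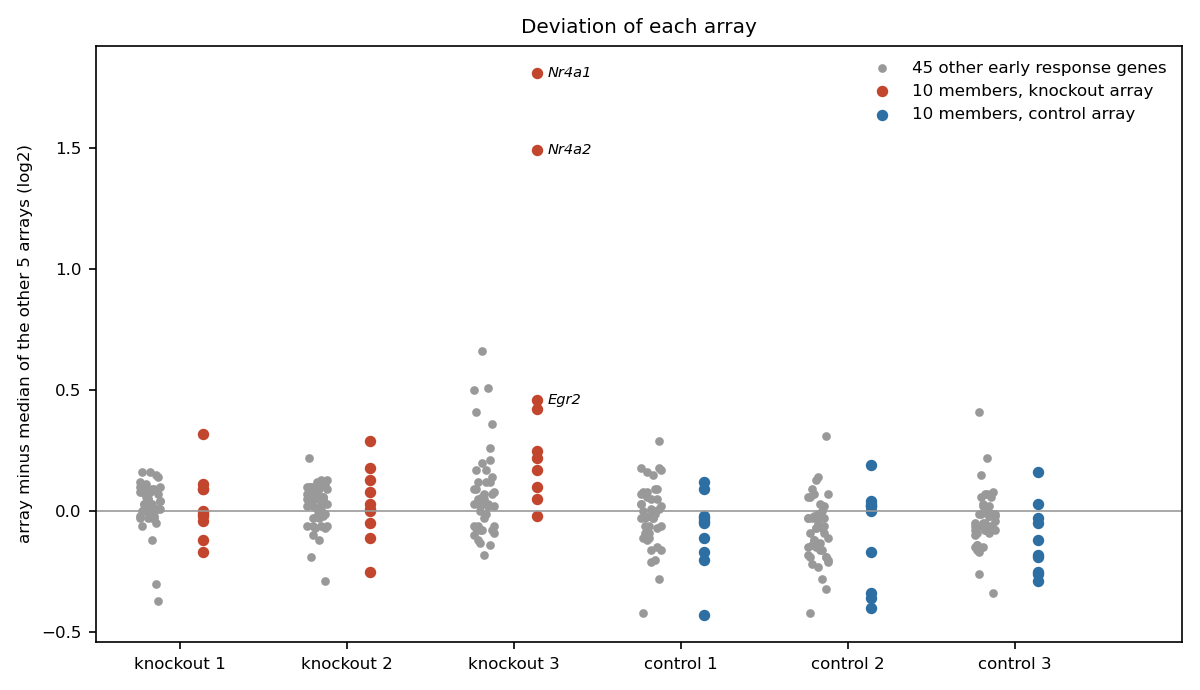
Value on each array minus the median of the other 5 arrays (vertical axis, log2), for the 10 members (coloured points, red on knockout and blue on control arrays) and 45 other early response genes (grey points). On knockout replicate 3 Nr4a1 reaches 1.81 and Nr4a2 1.49, and Egr2 and Egr1 follow at 0.46 and 0.42.

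Genes outside the 10 were described from lists chosen with earlier results of these data known. Of 45 other immediate early response genes, all measured, none passed the adjusted threshold in limma in either direction. At an unadjusted p under 0.05 there were 7 higher, against 4.1% of all tested clusters, and 0 lower, against 6.45%. Their median difference was 0.053, with 33 above and 10 below 0, where 51.3% of all tested clusters were above 0. Knockout values all above the control values were found for 10 of the 45, against 6.73% of all tested clusters. The smallest p-values were those of 2 phosphatases that switch MAP kinases off. Dusp6 measured 9.92, 9.98 and 9.93 in knockout testes, against 9.50, 9.50 and 9.76 in control testes (difference 0.36, SE 0.075, adjusted p = 0.291 in limma). Dusp4 measured 7.29, 7.26 and 7.22, against 6.94, 7.03 and 7.15 (difference 0.22, SE 0.060, adjusted p = 0.347 in limma). In both, the 3 knockout values were close together and knockout replicate 3 was not the highest.

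In the same list knockout replicate 3 gave the highest value for 15 of 45 genes, against 14.1% of all tested clusters. It did so by at least 0.25 for 4 of them, against 0.335%. Ptgs2, the inducible cyclooxygenase, measured 6.35, 6.28 and 6.94 in knockout testes and 6.26, 6.41 and 6.20 in control testes. It was chosen after its values were seen. Btg2, an antiproliferative factor, measured 9.05, 9.07 and 9.55, against 9.12, 9.04 and 9.02 in control testes. Ier3, a regulator of cell survival, measured 7.94, 7.98 and 8.36, against 7.74, 7.78 and 7.85 in control testes. Rgs2, which curbs G-protein signals, measured 10.62, 10.66 and 11.03, against 10.62, 10.43 and 10.48 in control testes. Of these 4, Ier3 also had knockout replicates 1 and 2 above every control testis, and without replicate 3 its difference was 0.17 in place of 0.30. Btg2, Ier3 and Rgs2 were also among the 8 named genes outside the 10 whose values ran closest to the members' mean profile, at root mean square distances of 0.047, 0.055 and 0.056 log2 units. The others were Il7r, Esco1, Bmp2, Tshb and Csrp2, at 0.040 to 0.064. That profile was itself high on 1 array, with mean deviations of -0.021, -0.040 and 0.42 on the knockout arrays and -0.10, -0.13 and -0.13 on the control arrays. Nr4a1 and Nr4a2 weighed most in it. On knockout replicate 3 they lay 1.81 and 1.49 above the median of the other arrays, and every other member 0.46 or less.

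Other bZIP factors were described in the same way. Of 10 measured (Jun, Jund, Fosl1, Fosl2, Atf3, Batf, Batf3, Jdp2, Maff and Mafk) none passed the adjusted threshold or an unadjusted p of 0.05. The unadjusted threshold was passed by 10.6% of all tested clusters. The median difference of the 10 was 0.027. Knockout replicate 3 was the highest for 3 of the 10, against 14.1% of all tested clusters. Fosl2, a partner of JUN proteins, measured 9.00, 9.12 and 9.52 in knockout testes, against 9.15, 8.95 and 9.05 in control testes, with knockout replicate 3 the highest by 0.37. Jund measured 10.01, 9.92 and 10.05, against 10.24, 9.95 and 10.30, a difference of -0.17 with an adjusted p of 0.560 in limma.

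The kinases, factors and cofactors that act with these genes were set beside them. Of 18 measured upstream genes, 0 were higher and 1 lower at an unadjusted p under 0.05, against 4.1% and 6.45% of all tested clusters. Their median difference was -0.0050, and knockout replicate 3 was the highest for 1 of the 18, against 14.1% of all tested clusters. The 1 lower gene was Camk4, a calcium-dependent kinase that phosphorylates CREB and is abundant in male germ cells (difference -0.13, adjusted p = 0.378 in limma). Elk1, a partner of SRF, was 0.14 higher (adjusted p = 0.506 in limma). Of 6 cofactors of EGR and NR4A proteins none passed an unadjusted p of 0.05, against 10.6% of all tested clusters. The RXR receptor Rxra, a dimer partner of NR4A1 and NR4A2, was at -0.11, and Ddx20, a helicase that binds EGR proteins, at -0.077. Both had knockout values below all control values, as did 8.6% of all tested clusters. Knockout replicate 3 was the highest for 0 of the 6, against 14.1% of all tested clusters. A list of inducible chaperones, which rise under heat and protein stress, also held the heme oxygenase gene Hmox1. The 9 measured genes of that list had a median of -0.033. None passed an unadjusted p of 0.05, against 10.6% of all tested clusters. Dnajb1 (-0.093) and Hsph1 (-0.14) had the smallest p-values among them. Knockout replicate 3 was the highest for none of the 9, against 14.1% of all tested clusters.

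**Figure D4:**
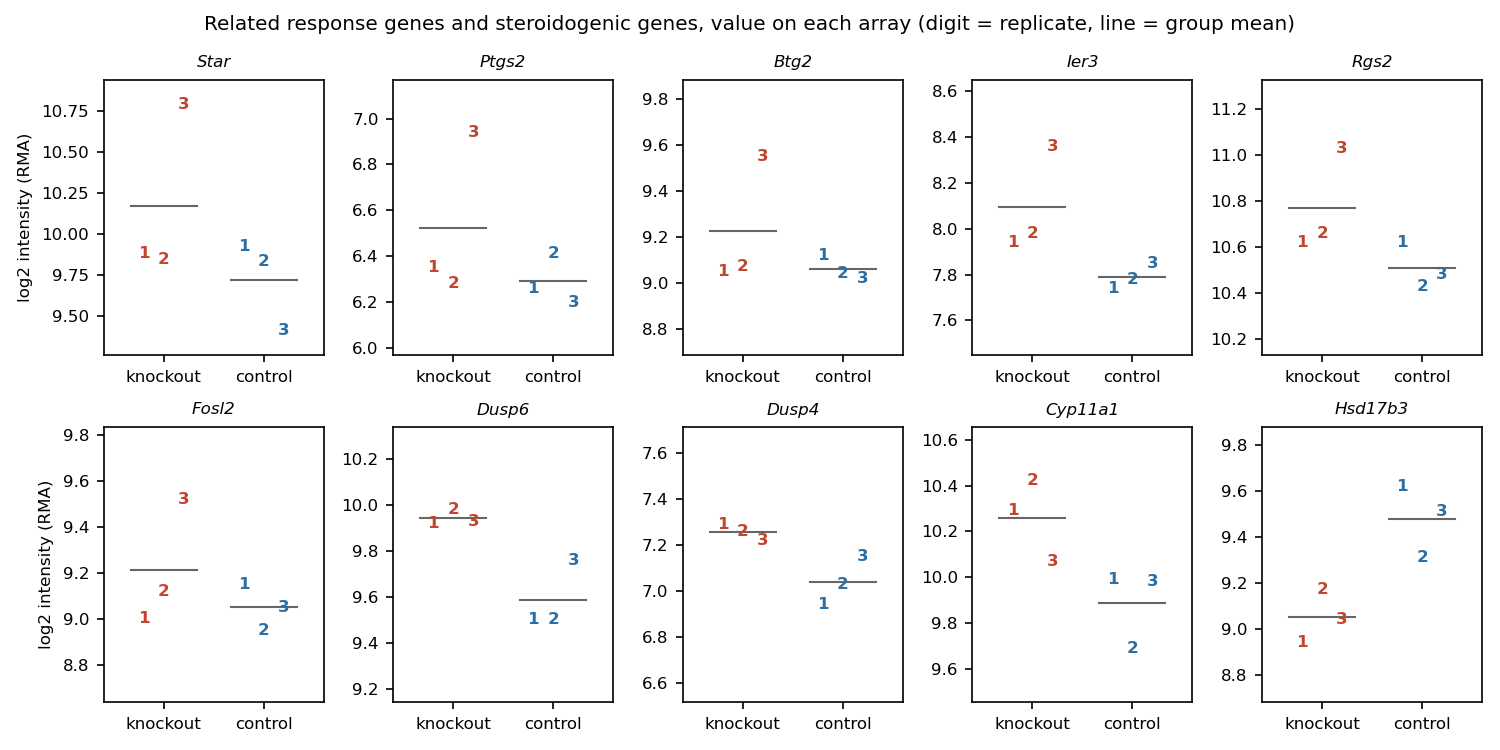
Log2 intensity (RMA) on each array for response genes and steroidogenic genes, knockout left and control right, digits being replicate numbers and lines group means. Star, Ptgs2, Btg2, Ier3, Rgs2 and Fosl2 peak on knockout replicate 3, Dusp6, Dusp4 and Cyp11a1 are higher in all 3 knockout testes, and Hsd17b3 is lower in all 3.

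Leydig cells are the testicular cells in which NR4A1 is best known, so their genes were set beside the NR4A values. Star measured 9.88, 9.84 and 10.79 in knockout testes, against 9.92, 9.83 and 9.41 in control testes, and its difference of 0.45 became 0.14 without knockout replicate 3. Knockout replicate 3 was the highest for 3 of 7 measured Leydig genes, against 14.1% of all tested clusters. Beside Star these were Hsd3b6, a steroid dehydrogenase of adult Leydig cells, by 0.15 and Cyp17a1, which makes androgen precursors, by 0.13, both chosen after their values were seen. Hsd3b6 measured 12.20, 12.21 and 12.36 in knockout testes, against 12.19, 12.00 and 11.91 in control testes, and Cyp17a1 11.06, 10.98 and 11.40, against 11.27, 11.06 and 9.93. Cyp11a1, which makes pregnenolone, measured 10.29, 10.42 and 10.07 in knockout testes, against 9.99, 9.69 and 9.98, so that replicate 3 was the lowest knockout value. Hsd17b3, which makes testosterone, measured 8.94, 9.17 and 9.04, against 9.62, 9.31 and 9.51 (adjusted p = 0.292 in limma, and 0.367 for Cyp11a1). Of 7 measured Leydig genes 6 differences were above 0 and 1 below (median 0.22), 2 higher and 1 lower at an unadjusted p under 0.05 (against 4.1% and 6.45% of all tested clusters), and none past the adjusted threshold. Their summed log2 level was 72.71 to 73.76 in knockout testes and 71.01 to 73.15 in control testes. Relative to the control mean, the median Leydig gene lay at 0.16, 0.18 and 0.18 in knockout replicates 1 to 3 and at 0.14, -0.033 and -0.057 in control replicates 1 to 3. The part of the Leydig cell level in the NR4A values was not tested.

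Macrophages and other somatic cells can express EGR and NR4A genes too. Of 10 macrophage markers 9 were above the control mean (median 0.12; summed log2 level 89.37 to 89.64 in knockout and 87.75 to 89.29 in control testes). At an unadjusted p under 0.05, 3 were higher and 0 lower, against 4.1% and 6.45% of all tested clusters. Knockout replicate 3 was the highest for 2 of the 10, against 14.1% of all tested clusters. The smallest p-values were those of Cx3cr1 and C1qc, each 0.16 higher with adjusted p-values of 0.389 and 0.393 in limma. Relative to the control mean, the median macrophage gene lay at 0.093, 0.15 and 0.14 in knockout replicates 1 to 3. In control replicates 1 to 3 it lay at -0.062, -0.043 and 0.093, so control replicate 3 was level with knockout replicate 1. Egr2, which macrophages express, was higher in all 3 knockout testes than in any control testis. The part of the macrophage level in Egr2 was not tested. Of 9 Sertoli cell markers 8 were above the control mean (median 0.070). Their summed log2 level was 104.33 to 104.94 in knockout and 103.74 to 104.42 in control testes. Knockout replicate 3 was the highest for 4 of the 9, against 14.1% of all tested clusters. Wt1 and Inha had the smallest p-values, each 0.07 higher, with adjusted p-values of 0.565 and 0.597 in limma. The medians of 6 peritubular myoid and 7 endothelial genes were both -0.017. Knockout replicate 3 was the highest for none of these genes, against 14.1% of all tested clusters. Relative to the control mean, the median myoid gene lay at 0.028, 0.047 and -0.13 in knockout replicates 1 to 3. In control replicates 1 to 3 it lay at -0.057, 0.010 and 0.043. The median endothelial gene lay at 0.017, 0.017 and -0.11 in knockout and at -0.023, -0.073 and 0.11 in control replicates. The smallest p-values among the myoid genes were those of Des (0.15) and Tagln (-0.15). Among the endothelial genes they were those of Esam (-0.12) and Kdr (-0.13). The adjusted p-values of Des, Tagln, Esam and Kdr ran from 0.447 to 0.707 in limma. Both measured erythrocyte genes were higher (Alas2 by 0.28 and Slc4a1 by 0.13), with adjusted p-values of 0.431 and 0.482 in limma. Knockout replicate 3 was the highest for neither, against 14.1% of all tested clusters.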

How the data were processed

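Total RNA of testes from 3 knockout and 3 control samples was hybridised to Affymetrix MoGene-1_0-st-v1 arrays. The deposited log2 values were made by the authors with RMA in Affymetrix Expression Console, per the submitters' processing notes. RMA corrects background, quantile normalises and summarises probes, so a uniform shift is removed and differences of dim clusters are compressed. No version, annotation or build is given in the sources used here. Of 35556 rows, 21789 had 1 platform symbol, 1621 several and 12146 none. Symbols were updated through gene identifiers to GRCm38.p6, where 21698 clusters matched. Groups followed the labels. The 2 genotypes were compared by limma 3.58.1 (R 4.3.3; lmFit, then eBayes) without covariates. P-values were adjusted by Benjamini-Hochberg over all 21789 clusters, and differences are knockout minus control. The number of arrays limits the precision. The fit was tested on simulated data. No array copied another (at most 4.12% identical values among any pair over all rows).

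Members and lists were chosen with earlier results of these data known. Named genes were all members, the 2 smallest p-values of each list where none passed, and the 8 named genes closest to the members' mean profile. Other genes given (Ddx4, Sox9, Ptgs2, Star, Fdx1, Serpina3a, Hsd3b6 and Cyp17a1) were chosen after their values were seen. Listed genes with no cluster of their own were not analysed here. The labels do not say whether replicate numbers pair the samples. Correlations of same-numbered deviations were 0.167, -0.054 and 0.170, and those of the other pairs ran from -0.23 to 0.084. Alternatives were centring arrays on their medians, testing all rows, leaving out the dimmest 25% of clusters, an intensity trend with a robust prior, the replicate block, an adjusted p of 0.1, 1 value per gene averaged over clusters, and leaving out each array.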

Additional observations from a re-analysis of the deposited data

How the results depend on the processing

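No member was called under any alternative, and 9 of the 10 kept their sign in all of them. The exception was Fosb, at -0.065 without knockout replicate 3. The count of all tested clusters called, 3 with all arrays, was 0 with all rows of the table tested, 7 with an intensity trend and robust prior, 6 at an adjusted p under 0.1 and 0 with the replicate block, and between 0 and 52 when 1 array was left out. It was 52 without control replicate 1. Under the replicate block, whose numbers are not known to pair the samples, Egr2 kept 0.42 (adjusted p = 0.263) and Egr1 0.31 (adjusted p = 0.263). No listed gene was called under any alternative. Of the list medians, 6 moved by more than the spread between replicates, among them those of Leydig genes without knockout replicate 3 (0.17) or control replicate 1 (0.30). Signal over background was not used here, so the limit for dim clusters is not known.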
